A study of Mus musculus with 12 samples.

Results

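The promoters of the olfactory receptor genes are described here as a group of closed regulatory regions in ATAC-seq libraries of mouse liver. They were taken as every promoter of the deposited table whose symbol begins with Olfr followed by a digit. This gave 1157 promoters of 1132 symbols among 43511 promoters, or 2.66% of the table. The rule used no measured value, though it was set with earlier results of these data known. Of the symbols, 23 had 2 promoters and 1 had 3, and 42 of the 1157 promoters shared identical counts with another, so neighbouring members are not independent. ATAC-seq uses the transposase Tn5 to cut accessible DNA, and the count of a promoter is the number of sequenced fragments or cuts that fell in it. Values were in steps of 0.5 and are treated as counts estimated by the authors, and neither the width of a promoter nor its counting rule is given in the sources used here, so a level is a count per promoter and not per length.

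The livers came from wild-type male C57BL/6N mice, 19 to 20 weeks old and on standard chow, that were gavaged for 4 days and fasted for 12 h. The groups were PCN (pregnenolone 16α-carbonitrile, which activates PXR, the pregnane X receptor of the mouse) at 100 mg/kg, atorvastatin (a cholesterol-lowering statin) at 10 mg/kg, and control with distilled water as vehicle. Each group had 4 libraries. The labels count 9 to 10 mice per group and do not say whether a library is a single mouse, so the p-values below measure the spread between these libraries.

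Olfactory receptors are G protein-coupled receptors that detect odorants. They form the largest gene family of the mouse, lie in clusters on many chromosomes, and are expressed one receptor per sensory neuron in the nasal epithelium. The homeodomain factor Lhx2, Ebf factors and the adaptor Ldb1 act at their promoters and at distant enhancers in those neurons. In other tissues most of these genes are silent. A few receptors have been reported outside the nose, liver among the sites. In an ATAC-seq library the counts on silent promoters therefore measure the background of cuts and fragments that open chromatin has to rise above.

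The sequences of 4 members and of a pair of open promoters show the kind of DNA that is compared. They span 250 bases before to 50 bases after the annotated start, are credited to RefSeq on GRCm38.p6, the mm10 assembly named in the submitters' processing notes, and carry each CG dinucleotide in capitals. Olfr524 (chr7:140202719-140203018, minus strand) is the member with the highest level among those with a sequence. Olfr1391 (chr11:49327163-49327462, plus strand) lies at the median of the members, Olfr1320 (chrX:49683254-49683553, plus strand) is X-linked, and Olfr734 (chr14:50320819-50321118, minus strand) encodes a receptor reported in mouse hepatocytes for the fasting hormone asprosin. For contrast, Alb (chr5:90460620-90460919, plus strand), the albumin gene, is open in hepatocytes with few CG dinucleotides, and Rplp0 (chr5:115559217-115559516, plus strand), a ribosomal protein gene, is open in all cells with many.
Olfr524: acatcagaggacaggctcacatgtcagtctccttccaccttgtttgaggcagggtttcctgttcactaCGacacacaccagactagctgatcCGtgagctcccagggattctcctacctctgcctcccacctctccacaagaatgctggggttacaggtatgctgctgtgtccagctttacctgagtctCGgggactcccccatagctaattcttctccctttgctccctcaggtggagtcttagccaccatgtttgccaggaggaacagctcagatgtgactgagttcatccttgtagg
Olfr1391: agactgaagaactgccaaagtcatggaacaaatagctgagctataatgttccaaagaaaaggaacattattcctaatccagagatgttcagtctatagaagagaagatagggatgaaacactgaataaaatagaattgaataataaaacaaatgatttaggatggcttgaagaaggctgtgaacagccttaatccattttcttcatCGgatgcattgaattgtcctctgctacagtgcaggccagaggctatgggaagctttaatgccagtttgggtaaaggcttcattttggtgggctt
Olfr1320: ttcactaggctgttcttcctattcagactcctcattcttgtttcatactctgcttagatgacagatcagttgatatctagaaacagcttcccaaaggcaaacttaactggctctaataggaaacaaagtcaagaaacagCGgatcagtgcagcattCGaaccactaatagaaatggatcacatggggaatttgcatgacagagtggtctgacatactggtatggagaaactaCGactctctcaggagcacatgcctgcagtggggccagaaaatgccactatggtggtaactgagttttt
Olfr734: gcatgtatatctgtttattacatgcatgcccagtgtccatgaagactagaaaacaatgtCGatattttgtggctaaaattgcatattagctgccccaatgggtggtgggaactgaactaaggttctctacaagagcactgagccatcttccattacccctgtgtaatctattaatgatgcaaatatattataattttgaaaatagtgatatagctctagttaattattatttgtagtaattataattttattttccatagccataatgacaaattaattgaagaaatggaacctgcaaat
Alb: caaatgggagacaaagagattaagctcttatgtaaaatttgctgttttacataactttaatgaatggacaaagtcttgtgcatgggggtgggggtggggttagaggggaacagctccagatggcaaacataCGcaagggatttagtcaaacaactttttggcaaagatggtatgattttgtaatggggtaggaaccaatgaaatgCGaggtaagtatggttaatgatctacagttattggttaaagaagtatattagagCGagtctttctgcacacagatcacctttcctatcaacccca
Rplp0: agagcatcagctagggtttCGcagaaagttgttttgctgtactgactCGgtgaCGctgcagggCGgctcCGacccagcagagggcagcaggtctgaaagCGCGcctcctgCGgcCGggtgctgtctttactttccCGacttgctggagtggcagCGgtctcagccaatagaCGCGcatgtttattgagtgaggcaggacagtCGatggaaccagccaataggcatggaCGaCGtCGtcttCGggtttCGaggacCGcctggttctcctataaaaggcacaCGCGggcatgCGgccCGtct
The GC content of these 300 bases was 53.3% in Olfr524, 38.7% in Olfr1391, 43.3% in Olfr1320 and 32.7% in Olfr734, against 40% in Alb and 59% in Rplp0. The CG dinucleotides numbered 3, 1, 3 and 1 in the members in that order, 3 in Alb and 24 in Rplp0. The mean level over the 12 libraries, in counts per 1000000 promoter counts (CPM), was 8.43 in Olfr524, 3.01 in Olfr1391, 2.03 in Olfr1320 and 2.79 in Olfr734, against 25.6 in Alb and 35.2 in Rplp0. Alb and Olfr1391 thus had nearly the same GC content at levels far apart.

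In sequence the members differed from the promoters as a whole. The RefSeq sequence table held 941 promoters of 937 member symbols, among 32851 promoters in all. The median GC content was 35% among members and 52.7% among all promoters. Low GC content was not particular to the family. Of the other silent families described below, Vmn1r, Vmn2r, Tas2r and Taar had medians of 36% to 38%, and Krtap and Defb 41.3% and 48%. The features that follow were not computed for those families. No CG dinucleotide was present in 33.5% of member promoters, against 5.43% of all, and the median number was 1 against 7. The letters TAATTA, the core site of homeodomain factors such as Lhx2 (a palindrome, so the same on both strands), occurred in 176 members or 18.7%, against 5.29% of all promoters. TATAAA, the TATA box core, searched on both strands, occurred in 40.8% of members against 13.6% of all. The palindromic site of Ebf factors, taken as TCCC and GGGA parted by 2 bases of any kind, occurred in 5 members (0.531%), against 0.904% of all promoters. A TATAAA match and a TAATTA match can stand in the same promoter, and a match is a description of the letters only. In the sequences of Olfr1391 and Olfr1320 above, the bases after the annotated start open with ATG, the letters of a start codon. For such members the annotated start may be that of the coding sequence and not of transcription. How many members this concerns was not tested, so their windows may not match those of other genes. Both AT-only motifs are more frequent in AT-rich sequence, and how far base composition sets these shares was not tested.

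Of the 1157 members, 1136 were matched to RefSeq genes, on 17 chromosomes. Chromosome 2 held 296 members, chromosome 7 held 240, chromosome 9 held 136 and chromosome 11 held 88, and 1099 members lay in 34 clusters of at least 5 olfactory receptor genes with gaps under 500 kb.

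Atorvastatin 3 and control 3 resembled the rest least, with median correlations of 0.789 and 0.776 across all promoters, against 0.931 to 0.971 in the other 10, so several results are also given without them. Counts at olfactory receptor promoters were low in every library. The summed counts of the members were 35909, 11452, 21233 and 11722 in PCN libraries 1 to 4, 19487, 21205, 72722.5 and 27851.5 in atorvastatin libraries 1 to 4, and 58931, 23790, 11257 and 3795 in control libraries 1 to 4. The median member held 29, 9, 17 and 9 counts in the PCN libraries, 16, 16, 54 and 22 in the atorvastatin libraries, and 49, 19, 5 and 3 in the control libraries. Control 3 and control 4 were the shallowest libraries, with 2368263 and 1679054 promoter counts in all, and the other 10 held between 4218336.5 and 15336000.5. In control 3 and control 4 the share of members with no count was 34.3% and 18.7%, while in the other 10 libraries it was between 0.346% and 2.25%. Only 4 members, both promoters of Olfr1506 and both of Olfr1565, had no count in any library, for which 3 counts over all libraries allow up to 0.0334 CPM.

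On the CPM scale, the mean member stood at 3.75, 2.03, 1.83 and 1.93 CPM in PCN libraries 1 to 4, at 3.99, 1.20, 8.03 and 1.82 CPM in atorvastatin libraries 1 to 4, and at 4.85, 3.28, 4.11 and 1.95 CPM in control libraries 1 to 4. Atorvastatin 3 was the highest library and atorvastatin 2 the lowest, so the full range of the series lay within a single treatment. The median of all promoters was between 12.8 and 19.8 CPM, and the mean member was at 9.01% to 40.6% of it. The median of 20 hepatocyte core promoters, genes of plasma proteins and other main hepatocyte products taken at the most open promoter of each, was at 35.7, 42.2, 30.9 and 37.1 CPM with PCN, 29.3, 39.6, 30.7 and 40.3 CPM with atorvastatin, and 28.6, 38.9, 21.4 and 45.9 CPM in control.

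**Figure D1:**
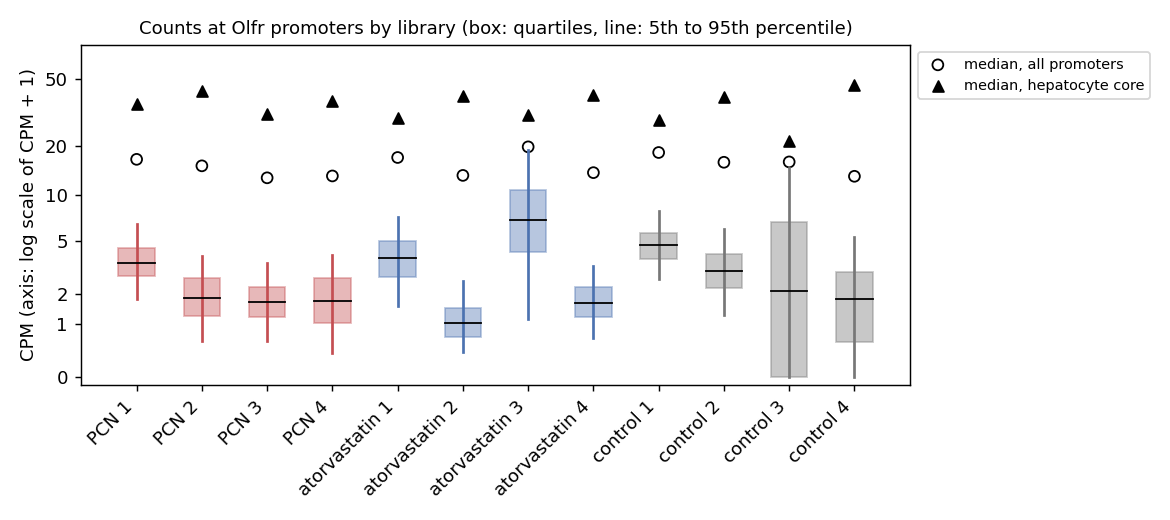
Level of the 1157 olfactory receptor promoters in each library, in CPM on a log axis of CPM + 1 (box, quartiles with the median as a line; vertical line, 5th to 95th percentile), with the median of all promoters as circles and of 20 hepatocyte core promoters as triangles. The mean member is at 8.03 CPM in atorvastatin 3 and at 1.20 CPM in atorvastatin 2, and the lower quartile of control 3 is at 0.

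The label of these promoters as closed was met by their levels. Averaged over the 12 libraries, the median member had 2.98 CPM, with quartiles at 2.33 and 3.90 CPM and the 5th and 95th percentiles at 1.71 and 5.62 CPM, against a median of 15.6 CPM and quartiles at 6.05 and 34.9 CPM over all promoters. No member reached the median of all promoters, 38 exceeded its lower quartile, and 666 (57.6%) were in the lowest 10% of the table, which ends at 3.21 CPM. Of the hepatocyte core promoters, 20 of 20 were above the 95th percentile of the members, and so were 25 of 25 housekeeping promoters, with median levels of 36.8 and 37.4 CPM. Of all promoters 77.2% were above it. Each gene of both lists was taken at its most open promoter, which favours a high level.

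The share of all promoter counts that fell on olfactory receptor promoters was 0.434%, 0.235%, 0.212% and 0.224% in PCN libraries 1 to 4, 0.462%, 0.138%, 0.929% and 0.211% in atorvastatin libraries 1 to 4, and 0.562%, 0.380%, 0.475% and 0.226% in control libraries 1 to 4. The 95% Wilson interval of each share reached at most 0.00876 percentage points from it, which covers counting error only, so the libraries differed by far more than counting error. The groups overlapped. The mean share was 0.276% ± 0.106 with PCN, 0.435% ± 0.357 with atorvastatin and 0.411% ± 0.144 in control (SD, n = 4 each). PCN was lower than control by 0.56 on the log2 scale (log2 difference -0.56, SE 0.37), with 3 of 4 PCN libraries below the control median, and a two-sided exact permutation test over libraries gave p = 0.2 (0.6 after Benjamini-Hochberg adjustment over the 3 comparisons). Atorvastatin differed from control by -0.22 (SE 0.67, exact p = 0.743, adjusted 0.743), and PCN from atorvastatin by -0.34 (SE 0.66, exact p = 0.629, adjusted 0.743). With 4 libraries against 4 the smallest p this test can give is 0.0286. Without control 3 and atorvastatin 3 the differences were -0.46 for PCN against control, -0.61 for atorvastatin against control and 0.15 for PCN against atorvastatin (exact p = 0.314, 0.4 and 0.886 in that order).

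No relation of the share with depth was detectable. Over the 12 libraries its Pearson correlation with the log10 of the promoter total was -0.03 (permutation p = 0.927, adjusted 0.927) and its Spearman correlation -0.35 (permutation p = 0.265, adjusted 0.53). Without control 3 and control 4, the libraries farthest from the median total, Pearson's r was -0.17 (permutation p = 0.664).

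The distance between open and closed promoters varied likewise. The median hepatocyte core promoter was 9.50, 20.8, 16.9 and 19.2 times the mean member in PCN libraries 1 to 4, 7.33, 33.2, 3.83 and 22.1 times in atorvastatin libraries 1 to 4, and 5.89, 11.8, 5.22 and 23.5 times in control libraries 1 to 4. The ratio averaged 16.6 ± 4.99 with PCN, 16.6 ± 13.6 with atorvastatin and 11.6 ± 8.46 in control (SD, n = 4 each), and each group held libraries on both sides of 10. The log2 difference was 0.73 for PCN against control (SE 0.56, exact permutation p = 0.257), 0.32 for atorvastatin against control (SE 0.87, exact p = 0.743) and 0.41 for PCN against atorvastatin (SE 0.76, exact p = 0.629). The adjusted p was 0.743 for each of the 3 comparisons. Without control 3 and atorvastatin 3 the differences were 0.43, 0.57 and -0.14 in that order (exact p = 0.514, 0.6 and 0.829).

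**Figure D2:**
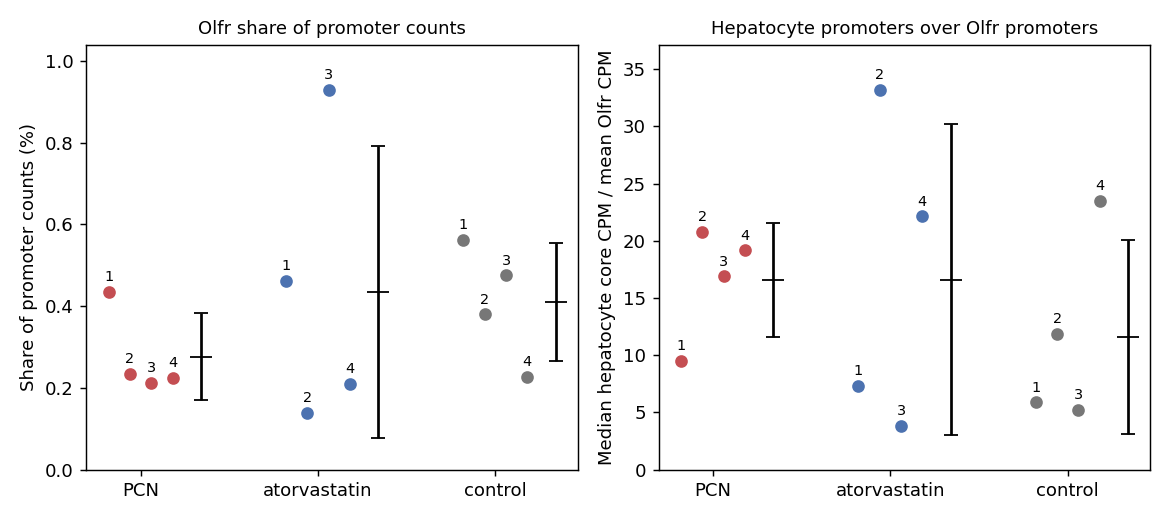
Left, share of promoter counts on olfactory receptor promoters (%); right, median hepatocyte core CPM over mean olfactory receptor CPM. Each point is a library, numbered by replicate, and the bar is the group mean ± SD (n = 4). The groups overlap in both panels, with atorvastatin 3 highest on the left at 0.929% and lowest on the right at 3.83.

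If every promoter carried the mean count of an olfactory receptor promoter, that even floor would amount to 16.3%, 8.84%, 7.97% and 8.41% of promoter counts in PCN libraries 1 to 4, 17.4%, 5.20%, 34.9% and 7.92% in atorvastatin libraries 1 to 4, and 21.1%, 14.3%, 17.9% and 8.50% in control libraries 1 to 4. The highest and lowest values again belonged to atorvastatin 3 and atorvastatin 2. The figure assumes an equal floor on all promoters, and the gradient with GC content given below bears on that assumption.

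Atorvastatin 3 and control 3 also stood apart in how the counts were spread over members. The variance over the mean of the member counts was 4.91, 3.37, 4.68 and 3.98 in PCN libraries 1 to 4, 3.42, 8.11, 28.7 and 6.79 in atorvastatin libraries 1 to 4, and 6.36, 4.15, 16.0 and 2.86 in control libraries 1 to 4. Single members reached high counts there: Olfr320 had 39.7 CPM in atorvastatin 3 and no more than 9.72 CPM in any other library, and Olfr159 had 44.3 CPM in control 3 and at most 14.3 CPM elsewhere. The correlation of each library with the others across members had a median between 0.198 and 0.566. It was lowest in control 4 (0.198), followed by control 3 (0.215) and atorvastatin 3 (0.244). These correlations describe members, which are not replicates.

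The members with the highest mean levels were still below the median promoter. Olfr1033 came first. It had 13.9, 16.5, 7.68 and 9.35 CPM in PCN libraries 1 to 4, 4.27, 13.1, 11.9 and 12.5 CPM in atorvastatin libraries 1 to 4, and 11.5, 9.26, 3.38 and 8.34 CPM in control libraries 1 to 4. Its lowest values were those of atorvastatin 1 and control 3, and the groups overlapped. Olfr524 had 13.3, 5.75, 2.79 and 5.92 CPM with PCN, 10.4, 4.89, 18.1 and 5.25 CPM with atorvastatin, and 12.2, 5.59, 11.0 and 5.96 CPM in control. Its highest values fell in the 5 libraries with the highest share, and the groups overlapped. The next 6 were Olfr71, Olfr159, Olfr541, Olfr320, Olfr90 and Olfr9, with mean levels between 7.64 and 7.87 CPM. A single library held the highest value by far at Olfr320 (39.7 CPM in atorvastatin 3) and at Olfr159 (44.3 CPM in control 3).

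The 8 receptors reported outside the nose, themselves members of the family, had mean levels between 2.79 and 7.71 CPM. Olfr90 had a mean of 7.71 CPM and Olfr544, reported in mouse liver and fat as a receptor for azelaic acid, 6.20 CPM. Olfr558, reported in kidney, had 6.04 CPM, and Olfr2, reported in vascular macrophages, 5.07 CPM. Olfr1393, reported in the kidney tubule, had 4.20 CPM, Olfr78, reported in the carotid body and kidney, 3.71 CPM, and Olfr16, reported in sperm, 3.27 CPM. Of the 8, Olfr90, Olfr544 and Olfr558 exceeded the 95th percentile of the members, which by definition only a small share of members exceeds. By mean level they ranked 7, 36 and 39 among the 1157 members. Whether receptors reported outside the nose are more often high than other members was not tested. Each of these 3 had a GC content near 50% (49.7%, 51.7% and 51.3%). Olfr90 was above the upper quartile, 5.90 CPM, of members at 45% to 50% GC (median 4.81 CPM). Olfr544 and Olfr558 were inside the quartiles of members at 50% to 55% GC, 5.25 and 7.16 CPM. The part of GC content in these levels was not tested. Olfr734, the receptor reported in hepatocytes, had 3.02, 1.23, 2.20 and 0.76 CPM in PCN libraries 1 to 4, 3.08, 0.65, 11.6 and 2.42 CPM in atorvastatin libraries 1 to 4, and 3.62, 3.35, 0 and 1.49 CPM in control libraries 1 to 4. Its mean of 2.79 CPM was below the median member, and its atorvastatin 3 value was the highest.

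Genes that work with these receptors had more counts per promoter than most receptors, each taken at its most open promoter. Of 14 genes of olfactory transduction, 11 exceeded the 95th percentile of the members, as 77.2% of all promoters did, and their median of 7.88 CPM was below the 15.6 CPM of all promoters. Ric8b, an exchange factor for the olfactory G protein with expression in many tissues, had 42.2 CPM, Omp, a marker of mature olfactory neurons, 21.1 CPM, and Gnal, the olfactory G protein alpha subunit, 8.10 CPM. Cnga2, the cyclic nucleotide-gated channel subunit of the sensory cilia, was lowest at 3.84 CPM, inside the range of the receptors. Of 8 regulators of receptor choice, 8 exceeded that percentile, with a median of 14.1 CPM, also below that of all promoters. Ldb1 had 55.4 CPM, the demethylase Kdm1a 23.8 CPM, Lhx2 13.6 CPM, Ebf1 8.02 CPM and Emx2 7.93 CPM. Markers of other liver cell types had list medians between 6.61 CPM (lymphocyte) and 10.7 CPM (liver endothelial), above the members and below the hepatocyte core.

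Other families that are silent in liver had similar levels. Averaged over libraries, the mean promoter of the family was at 3.23 CPM for the olfactory receptors, 1.87 CPM for the 262 vomeronasal Vmn1r promoters, 2.15 CPM for 132 Vmn2r, 3.20 CPM for 35 bitter taste receptor Tas2r, 3.86 CPM for 15 trace amine receptor Taar, 4.27 CPM for 54 keratin-associated Krtap, 4.47 CPM for 44 beta-defensin Defb and 1.41 CPM for 35 Rhox promoters. Olfactory receptors were above Vmn1r, Vmn2r and Rhox in 12 of 12 libraries and below Krtap and Defb in 12 of 12, each with a two-sided exact sign-flip p of 0.000488 on the log2 ratio per library, the smallest this test can give over 12 libraries (adjusted 0.000684 over 7 families). They were above Tas2r in 4 of 12 libraries (exact p = 0.964, adjusted 0.964) and above Taar in 2 of 12 (exact p = 0.0342, adjusted 0.0399). These tests read the same promoters in every library, so their p measures the spread between libraries and not between promoters of a family. In the mean of the 542 promoters of the 6 families other than Rhox, the 7 highest libraries stood in the same order as for the olfactory receptors. Atorvastatin 3 was the highest at 6.60 CPM and atorvastatin 2 the lowest at 1.02 CPM. Where a sequence was available, the median GC content was 35% in the olfactory receptors, 36% in Vmn1r, 38% in Vmn2r, 37% in Tas2r and 37.3% in Taar. It was 41.3% in Krtap, 48% in Defb and 47.7% in the X-linked Rhox, and its part in the family levels was not tested.

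Within the family, counts climbed with GC content. A GC value was available for 940 of the 1157 promoters (81.2%). The 308 promoters above 38% GC had 1.24 to 2.01 times the mean count of the 329 promoters at or below 33%, and the ratio was above 1 in 12 of 12 libraries. Across the members, the Spearman correlation of GC content with the mean level was 0.508, as a description over promoters of the same libraries. By steps of 5 percentage points, the median member was higher at each step up to 60% GC, at 2.65 CPM for 30% to 35% GC (320 promoters), 3.87 CPM for 40% to 45% (139) and 6.39 CPM for 50% to 55% (19). Promoters of other genes had almost the same medians at low GC, 2.71 CPM and 4.21 CPM in the first of these steps and the second, and 12.2 CPM at 50% to 55%. Between 30% and 40% GC, the median of 1067 other promoters was 0.833 to 1.67 times that of 579 members over the 12 libraries. These extremes were those of control 4 and control 3, the shallowest libraries. In the others the ratio was between 0.941 (PCN 3) and 1.13 (atorvastatin 2).

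**Figure D3:**
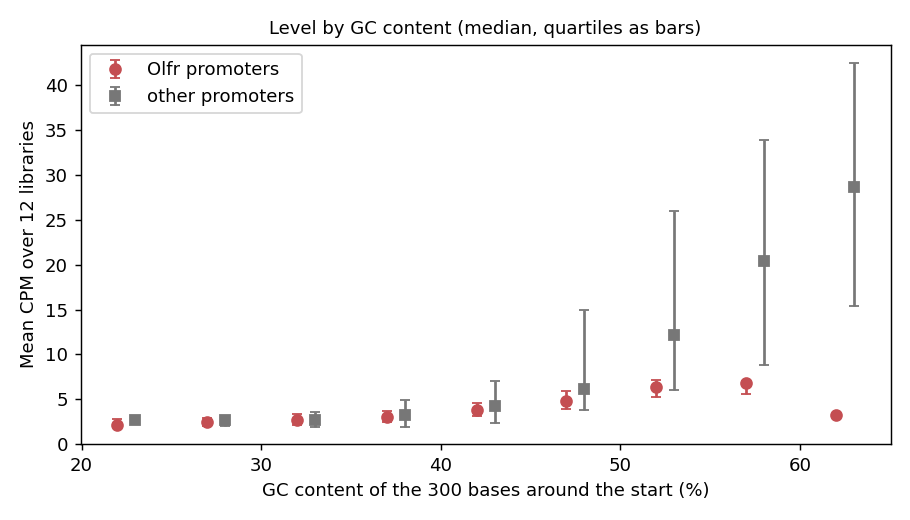
Median level over the 12 libraries (CPM, bars show quartiles) of olfactory receptor promoters and of other promoters, by GC content of 300 bases around the start in steps of 5 percentage points. The medians are close up to 45% GC and part at 50% to 55%, at 6.39 CPM for members and 12.2 CPM for others; the last point of the members is a single promoter.

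Level also varied with the surroundings. The 7 members within 5 kb of the start of a gene outside the family had a mean of 5.23 ± 2.08 CPM, 61 members at 5 to 20 kb had 4.42 ± 1.68 CPM, 312 members at 20 to 100 kb had 3.68 ± 1.33 CPM, and 557 members farther away had 2.86 ± 0.952 CPM (SD over members). By cluster (coordinates on GRCm38.p6), the 228 members between 85330967 and 90401674 on chromosome 2 had a mean of 2.58 CPM and a median GC content of 32%, and the 126 members between 102476773 and 105369317 on chromosome 7 had 3.61 CPM and 37.3%. The 19 members between 140162010 and 140722212 on chromosome 7, Olfr524 and Olfr541 among them, had 5.33 CPM and 45%. GC content, the distance to other genes and the cluster move together here, and their separate parts were not tested.

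The deposited enhancer table carried few regions in these clusters. It held 1623 of its 406518 regions in the 30.4 Mb of the 34 clusters, or 53.4 per Mb, against 155.7 per Mb in the rest of the chromosomes, a 2.91-fold difference (the rest was measured up to the last annotated gene of each chromosome). The 5.07 Mb cluster on chromosome 2 held 119 regions, or 23.5 per Mb, and the cluster on chromosome X held 3, or 4.04 per Mb. Of the cluster regions 39.1% were exactly 182 bases wide, against 24.7% elsewhere. The clusters took 0.293%, 0.307%, 0.258% and 0.263% of enhancer counts in PCN libraries 1 to 4, 0.276%, 0.262%, 0.423% and 0.260% in atorvastatin libraries 1 to 4, and 0.324%, 0.291%, 0.272% and 0.273% in control libraries 1 to 4. The share was highest in atorvastatin 3. The mean count of a cluster region over that of a region elsewhere was 1.06 in atorvastatin 3, and 0.832 without the regions of that width. In the other 11 libraries it was between 0.647 and 0.811 with all regions, and between 0.781 and 0.954 without the regions of that width, so atorvastatin 3 then lay inside the range of the others.

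Members on the X chromosome were lower than those on autosomes. Male mice carry a single X beside paired autosomes, and 6 members, Olfr1320 to Olfr1325, are X-linked. Their mean count over that of autosomal members was 0.627, 0.645, 0.539 and 0.393 in PCN libraries 1 to 4, 0.635, 0.529, 0.247 and 0.669 in atorvastatin libraries 1 to 4, and 0.639, 0.564, 0.969 and 0.811 in control libraries 1 to 4. The ratio was below 1 in 12 of 12 libraries and averaged 0.606 ± 0.183 (SD over libraries), or 0.605 ± 0.109 without control 3 and atorvastatin 3, which held its extremes. The mean levels of the 6 were 2.03, 1.91, 1.21, 2.11, 2.35 and 1.59 CPM for Olfr1320 to Olfr1325, all below the family median of 2.98 CPM. Their median GC content was 38.5%, above the 35% of autosomal members, and against autosomal members within the GC range of the X-linked ones the mean ratio was 0.619. The 35 Rhox promoters, an X-linked family of homeobox genes of the reproductive tract, had 0.428 ± 0.0755 times the mean count of autosomal members, below 1 in 12 of 12 libraries. Low levels were also found in families not chosen by chromosome. The mean promoter was at 1.87 CPM in Vmn1r and 2.15 CPM in Vmn2r, against 1.87 CPM over the 6 X-linked members. Tas2r, Taar, Krtap and Defb were higher, at 3.20 to 4.47 CPM. With 6 promoters, differences between single promoters weigh heavily, and the part of chromosome copy number was not tested.

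**Figure D4:**
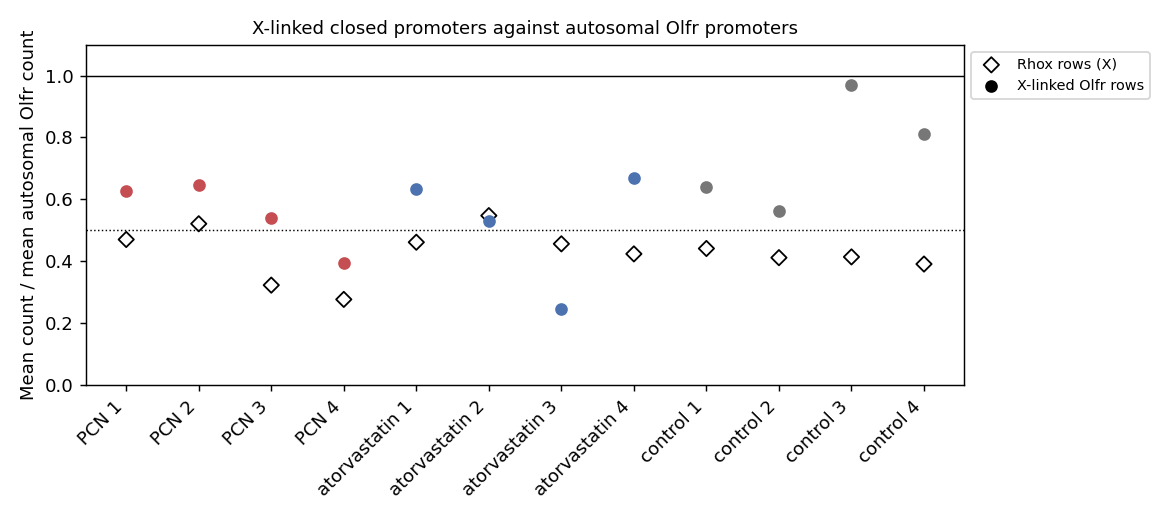
Mean count of the 6 X-linked olfactory receptor promoters (filled) and of 35 X-linked Rhox promoters (open) over the mean count of autosomal olfactory receptor promoters, by library; the solid line marks equal counts and the dotted line a ratio of 0.5. All points are below 1, with the widest values of the olfactory receptors at 0.247 in atorvastatin 3 and 0.969 in control 3.

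The comparisons between treatments then asked whether any of these silent promoters changed. None was called. In edgeR's quasi-likelihood fit of the whole table with TMM scaling and all 12 libraries, 41908 promoters passed the filter on low counts, 1148 members among them, and at an adjusted p of 0.05 the number called was 0 (0%) in each of the 3 comparisons. The lowest adjusted p of a member was 0.918 for PCN against control, and 1 for the others after rounding. The counts of all promoters at an unadjusted p under 0.05 were 1572 for PCN against control, 807 for atorvastatin against control and 306 for PCN against atorvastatin. DESeq2 called 0, 1 and 0 promoters in these comparisons and no member.

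A fit without the filter kept 1153 members, all except those with no counts, and served for the values below. At an unadjusted p under 0.05, 25 members (2.17%) were lower with PCN than in control and none higher, against 1.87% lower and 1.88% higher among 42871 promoters. For atorvastatin against control 16 members (1.39%) were lower and 1 (0.0867%) higher, against 0.914% and 1.09% of all promoters. For PCN against atorvastatin 14 members (1.21%) were lower and none higher, against 0.73% and 0.117%. On the lower side the share was close to the background for PCN against control and above it in the others, and the sole member on the higher side, Olfr516, was looked up after its value was seen.

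Few members had groups without overlap, taken on TMM-scaled counts. PCN libraries lay below all control libraries at 23 of 1153 members (1.99%), where the share over all 42940 promoters with counts was 1.49%, and above them at none, where it was 2.04%. Atorvastatin libraries lay below all control libraries at 7 members (0.607%; 0.438% over all promoters) and above them at none (0.538%). PCN libraries lay above all atorvastatin libraries at Olfr1218, Olfr1241 and Olfr1290, which are 3 members (0.26%; 0.293%) named after their values were seen, and below them at none (0.212%).

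The median of the members was nonetheless below 0 in both PCN comparisons with all libraries. Their median log2 fold change for PCN against control was -0.42, with 249 of 1153 above 0, beside 0.01 over all promoters and 0.35 over the hepatocyte core (16 of 20 above 0). For atorvastatin against control it was -0.0030 (573 of 1153 above 0), beside 0.05 over all promoters and 0.28 over the hepatocyte core. For PCN against atorvastatin it was -0.46 (262 of 1153), beside -0.02 over all promoters and 0.04 over the hepatocyte core. The 492 tested promoters of the other closed families, Rhox left out, had medians of -0.35, 0.08 and -0.56 in the same order of comparisons. The 3 comparisons share libraries, and members share background, so these counts are descriptions without a test. The marker lists of other cell types had medians below 0 for PCN against control too. These were -0.48 for Kupffer cells (1 of 7 genes above 0), -0.44 for stellate cells (0 of 6), -0.23 for cholangiocytes (2 of 5), -0.22 for liver endothelial cells (1 of 6), -0.05 for lymphocytes (3 of 7) and -0.64 for olfactory neurons (1 of 7). The summed level of the Kupffer cell list was 27.8 to 53.5 CPM with PCN, 22.6 to 86.1 CPM with atorvastatin and 24.7 to 101.3 CPM in control. That of the stellate cell list was 32.1 to 62.8 CPM with PCN, 36.1 to 81.7 CPM with atorvastatin and 51.5 to 92.7 CPM in control. For both lists the highest control value was that of control 3 and the highest atorvastatin value that of atorvastatin 3. Without those libraries the medians for PCN against control were -0.11 for Kupffer cells and -0.40 for stellate cells. In control and PCN the sums were 45.3 to 96.4 and 48.4 to 71.4 CPM for endothelial cells. They were 45.3 to 76.4 and 36.4 to 60.8 CPM for cholangiocytes, and 24.4 to 61.1 and 29.3 to 52.8 CPM for lymphocytes. Promoters outside the family at similar levels, divided into bins as described below, had medians of -0.44 (bin median 6.65 CPM) and -0.34 (9.03 CPM) for PCN against control. No marker was at 0 in all libraries, and the part of these cell types in the medians was not tested. In bulk nuclei a change in every cell and a change in some cells cannot be told apart.

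The shift against control depended on the libraries. Without control 3 and atorvastatin 3, an alternative chosen after the data were seen, the median of the members was -0.44 for PCN against control, -0.60 for atorvastatin against control and 0.17 for PCN against atorvastatin, with 135, 63 and 766 of 1153 above 0. The corresponding medians of the hepatocyte core were 0.21, 0.22 and -0.01, and those of the other cell type lists for PCN against control lay between -0.40 (stellate cells) and -0.02 (cholangiocytes). Leaving out a single library moved the medians of the members most for PCN against control without control 1 (-0.16) or PCN 1 (-0.67), and for the atorvastatin comparisons without atorvastatin 2 (0.27 against control) or atorvastatin 3 (-0.58 against control). Without atorvastatin 3 alone the median for PCN against atorvastatin was 0.14. With control 3 and atorvastatin 3 out, both treatments had a median below 0 over the members and above 0 over the core, each against control. Without those libraries and with the filter on low counts, edgeR called 6 promoters for PCN against control, 4 for atorvastatin against control and none for PCN against atorvastatin (7, 6 and none without the filter), and none was a member.

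Promoters of low counts outside the family had negative medians for PCN against control as well. When all other promoters were divided into 10 bins of rising mean CPM, the median log2 fold change for PCN against control was -0.25 in the lowest bin (median 2.50 CPM), -0.36, -0.44 and -0.34 in the next 3 bins, and 0.25 in the highest (median 65.9 CPM). For atorvastatin against control the lowest and highest bins were close to each other, at 0.10 and 0.08, and without control 3 and atorvastatin 3 at -0.51 and 0.21. For PCN against control they were then at -0.39 and 0.23. Housekeeping promoters, which serve functions common to all cells, had medians of 0.24 for PCN against control and 0.07 for atorvastatin against control, and of 0.13 and 0.15 without control 3 and atorvastatin 3, on the same side as the hepatocyte core.

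**Figure D5:**
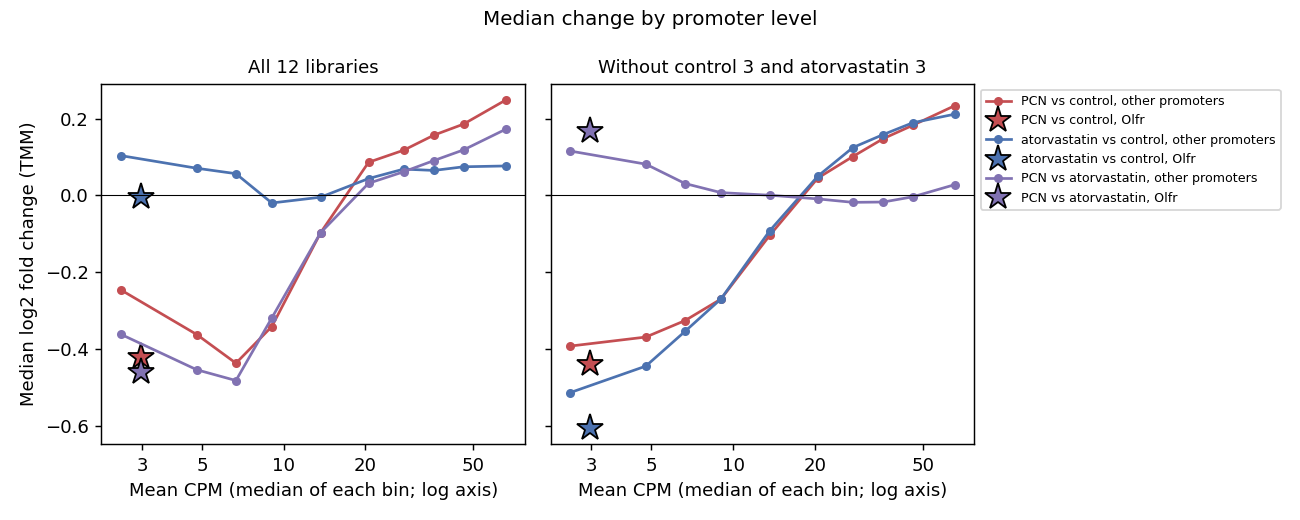
Median log2 fold change in 10 bins of mean CPM over promoters outside the family (points joined by lines; x axis, median mean CPM of the bin on a log scale) and over olfactory receptor promoters (stars), for the 3 comparisons, with all libraries and without control 3 and atorvastatin 3. With all libraries the members are at -0.42 for PCN against control and -0.0030 for atorvastatin against control; without those libraries they are at -0.44 and -0.60, near the lowest bins.

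The scaling sets where 0 lies. With library totals in place of TMM, the medians of the members were -0.53 for PCN against control, 0.01 for atorvastatin against control and -0.58 for PCN against atorvastatin. When the summed olfactory receptor counts were used as the library size, so that the closed promoters define no change, the median of all promoters moved to 0.44, 0.42 and 0.03, and that of the hepatocyte core to 0.71, 0.72 and 0.03. The medians of the members were then at 0.05, 0.01 and 0.02, as that scaling fixes them near 0.

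Individual members are given for completeness, and none passed the test. The 3 members of smallest p on the lower side with PCN were Olfr780, Olfr1271 and Olfr667 (edgeR adjusted p = 0.918 for each). Olfr780 had 1.27, 1.03, 2.39 and 1.72 CPM in PCN libraries 1 to 4, against 4.34, 5.27, 13.5 and 5.96 CPM in control libraries 1 to 4, a log2 fold change of -2.01 (SE 0.72). These groups did not overlap, and control 3 was the highest. Olfr1271 had 2.06, 0.82, 2.00 and 0.38 CPM with PCN, against 4.57, 2.95, 27.0 and 0 CPM in control, and its log2 fold change of -2.50 (SE 0.90) was -0.87 without control 3. Olfr667 had 4.29, 0.82, 0.95 and 2.29 CPM with PCN, against 7.53, 6.23, 15.2 and 3.57 CPM in control, a log2 fold change of -1.83 (SE 0.67), with PCN 1 above control 4. On the higher side Olfr1472 (log2 fold change 1.01, SE 0.86), Olfr1477 (0.92, SE 0.86) and Olfr1033 (0.61, SE 0.45) came first. Their log2 fold changes moved to 0.53 (without PCN 1) and 1.80 (without control 1) at Olfr1472, to 1.83 (without control 1) at Olfr1477 and to 0.36 (without control 3) at Olfr1033. Olfr1472 had 3.15, 1.64, 0.70 and 0.95 CPM with PCN, against 1.67, 0.96, 0 and 0 CPM in control, where control 3 and control 4 had no counts.

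Against control, atorvastatin had its smallest p on the lower side at Olfr1002, Olfr1062 and Olfr1325 (edgeR adjusted p = 1 for each). Olfr1002 had 0.71, 0.52, 0.51 and 1.74 CPM in atorvastatin libraries 1 to 4, against 5.24, 1.68, 9.71 and 1.49 CPM in control libraries 1 to 4, a log2 fold change of -2.17 (SE 0.78), and only atorvastatin 4 reached into the control range. Olfr1062 had 2.73, 0.95, 0.51 and 2.08 CPM with atorvastatin, against 5.00, 3.35, 16.5 and 3.57 CPM in control, without overlap and with a log2 fold change of -2.08 (SE 0.75). The X-linked Olfr1325 had 1.66, 0.26, 0 and 0.15 CPM with atorvastatin, against 2.53, 0.48, 8.45 and 1.79 CPM in control (log2 fold change -2.81, SE 1.05). At all 3 the highest control value was that of control 3, without which the log2 fold changes were -1.53, -1.29 and -1.83 in that order. On the higher side Olfr516 (log2 fold change 1.61, SE 0.77), Olfr75-ps1 (1.66, SE 0.81) and Olfr1225 (1.65, SE 0.86) came first, and at each atorvastatin 3 was the highest library of its group, with 22.2, 9.26 and 10.2 CPM. Without atorvastatin 3 their log2 fold changes were 0.54, 0.56 and 0.91.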

How the data were processed

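ATAC-seq was made by the authors on mouse liver, 4 libraries per group and 12 in all. The authors deposited expected counts per promoter and per enhancer region, not normalized, a unit read from the values. The counting tool, the width of a promoter and any filter are not given in the sources used here. Trimmomatic, STAR (2.7.9a), bedtools (2.30.0), HOMER (4.10) and mm10 appear, without their roles, in the submitters' processing notes. Nuclei numbered 100000 per reaction, per the labels.

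CPM was computed over the promoter total of a library. For tests, counts were rounded and fitted in R 4.3.3 with edgeR 4.0.16: TMM, filterByExpr (min.count 10, min.total.count 15), group as the only factor, quasi-likelihood test, Benjamini-Hochberg over all promoters at 0.05. Values of single members and list medians came from the same fit with no filter, in which members with low counts are kept. The SE was taken as |log2 fold change| divided by √F and is approximate. DESeq2 1.42.0, other scalings, the replicate block and leaving out libraries were alternatives. Exact tests used Python 3.11.15, numpy 2.4.6, pandas 2.3.3 and scipy 1.17.1, and figures matplotlib 3.10.9.

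Members and gene lists were chosen with earlier results of these data known. Named were the 8 members of highest mean CPM, the X-linked members, 8 receptors reported outside the nose, and the 3 members of smallest p per direction against control. Chromosomes, coordinates and sequences came from RefSeq tables of GRCm38.p6, and 21 members were not matched. Intervals cover counting error only. The pravastatin mice of the design are not analysed here.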

Additional observations from a re-analysis of the deposited data

Results flagged for a closer look

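Of 117 groups of 4 libraries tested, 17 held a library whose gap to its nearest neighbour was large for the group range. The nominal chance rate of about 5% cannot be compared with this number. Members named for a high mean level or a small p are among those flagged, and an outlying library can itself place a member there. Some flagged groups also hold low counts. The libraries are shared between the groups, so the flagged values do not count independently. Whether they exceed chance was not tested.

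Over all olfactory receptor promoters, PCN 1 had a share of 0.434% of promoter counts, against 0.212% to 0.235% in the other PCN libraries. Members with no count made up 2.25% in PCN 4, against 0.346% to 0.519% in the other PCN libraries. The same share was 1.64% in atorvastatin 3 and 0.432% in each of the other atorvastatin libraries, although atorvastatin 3 had the highest mean level. In control 3, GC-rich members had 1.94 times the mean count of GC-poor ones, against 1.30 to 1.39 times in the other control libraries. In atorvastatin 3 the olfactory receptor clusters took 0.423% of enhancer counts, against 0.260% to 0.276% in the other atorvastatin libraries.

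Among single promoters, control 3 held the outlying value at Olfr159 (44.3 CPM, 6.43 or less in the other control libraries), Olfr1271 (27.0 CPM, 4.57 or less) and Olfr1062 (16.5 CPM, 3.35 to 5.00). Control 3 is also the library with 34.3% of members at 0, so its counts were concentrated on fewer members. Atorvastatin 3 held it at Olfr1393 (13.5 CPM, 2.48 to 3.56 in the other atorvastatin libraries) and Olfr1477 (10.3 CPM, 0.62 to 2.13). Atorvastatin 1 was low at Olfr1033 (4.27 CPM, 11.9 to 13.1 in the others) and high at Olfr1325 (1.66 CPM, 0.26 or less), and atorvastatin 4 was high at Olfr1002 (1.74 CPM, 0.51 to 0.71). Of the PCN libraries, PCN 1 was high at Olfr541 (9.62 CPM, 6.36 to 6.59) and PCN 3 low at Olfr1062 (0.898 CPM, 3.24 to 3.69). Control 4 had 0 counts at Olfr1393 (4.38 to 5.19 CPM in the other control libraries), and control 1 was high at Olfr1477 (2.67 CPM, 0.42 to 0.80).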

How the results depend on the processing

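No member was called under any alternative run. All promoters called numbered 6 for PCN against control and 4 for atorvastatin against control without control 3 and atorvastatin 3 together (chosen after the data were seen; 7 and 6 with no filter as well), and 1 for atorvastatin against control with DESeq2. That pair of libraries left out, PCN against atorvastatin turned to 0.15 for the log2 share, -0.14 for the log2 ratio of open to closed promoters and 0.17 for the median of the members. With the summed olfactory receptor counts as library size, the medians of the members became 0.051 for PCN against control, 0.0072 for atorvastatin against control and 0.017 for PCN against atorvastatin. The median for atorvastatin against control, -0.0030, also turned to 0.018 with DESeq2 size factors, 0.010 with library totals and 0.031 with DESeq2. The cause was not tested. Leaving out each library in turn gave log2 shares of -0.82 to -0.38 for PCN against control, -0.71 to 0.21 for atorvastatin against control and -0.77 to 0.15 for PCN against atorvastatin. The log2 ratio was 0.43 to 1.16, -0.17 to 0.87 and -0.14 to 0.90 in that order, and the median of the members -0.67 to -0.16, -0.58 to 0.27 and -0.76 to 0.14. The extremes of the atorvastatin comparisons came from leaving out atorvastatin 2 or atorvastatin 3. In the median of PCN against control the direction held without each library. Same-numbered libraries deviated together in 6 of 12 pairs only. These were the 3 of replicate 1 (r from 0.36 to 0.48) and the 3 of replicate 4 (0.21 to 0.40). Those of replicates 2 and 3 ran from -0.41 to 0.08, and 4 of 12 libraries correlated best with their own number. With the replicate block the exact sign-flip p of the share was 0.125, 0.625 and 0.75, where 4 pairs allow no p below 0.125, and 0 promoters were called. Control 3 and control 4, at median counts of 5 and 3 per member, limit what single members can show.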
